A study of Rattus norvegicus with 9 samples.

Results

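This account covers 10 genes that shape, divide, move and clear mitochondria, measured in rat dendritic cells exposed to LPS with or without extracellular vesicles. They are the fusion genes Mfn1, Mfn2 and Opa1, the fission genes Dnm1l and Fis1, the mitophagy genes Pink1, Bnip3l and Fundc1, and the transport genes Rhot1 and Rhot2. They were picked by symbol from a table of 20442 genes, and all 10 passed the filter on low values, as did 11141 genes in all. RNA came from bone marrow-derived dendritic cells of wild-type rats, grown in 1640 medium with 10% serum and with GM-CSF and IL-4 at 20 ng/mL each. LPS+EVs cultures (n = 3) received LPS, the bacterial endotoxin that activates dendritic cells, together with vesicles derived from ASCs. LPS cultures (n = 3) received LPS, and Control cultures (n = 3) received neither. The protocol gives 1 µg/mL of LPS, 50 ng/mL of an agent it does not name, and a treatment of 24 h, in the same words for every culture, Control included. Which cultures received the unnamed agent is therefore not known, and neither is the dose of vesicles, nor the strain and age of the rats. The replicates are labelled as biological, with nothing on separate animals, and p-values here measure the spread between these cultures. By its title the study asks whether vesicles that carry mitochondria change dendritic cell metabolism, and the genes below are the ones that handle mitochondria inside a cell.

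Mitochondria form a network that constantly joins and splits. The mitofusins join outer membranes, OPA1 joins inner membranes and holds the cristae together, and the dynamin-related protein encoded by Dnm1l is pulled to the outer membrane to pinch a mitochondrion apart. Damaged pieces are marked for autophagy either with ubiquitin chains, which the kinase PINK1 helps to build, or by receptors that sit in the outer membrane, and the Miro proteins tie mitochondria to motors on microtubules. In macrophages and dendritic cells, activation by LPS is known to move metabolism towards glycolysis, and the shape of the network is known to change with it.

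Reads assigned to genes numbered 32148519 to 39407116 per library, and the members rested on 205 reads (the lowest count of Fundc1) to 10206 reads (the highest of Bnip3l). The first principal component, with 65.6% of the variance, separated Control from both LPS-treated groups. The second, with 21.0%, held apart the library numbered 2 in every group, and those libraries also had the highest sum of dendritic cell markers, at 7510 FPKM in LPS+EVs, 7260 in LPS and 8410 in Control, mostly Cd74 of the class II pathway. They had the lowest sum of stromal markers in each group, at 157, 117 and 160 FPKM in the same order. Their sum of macrophage and monocyte markers was the highest in LPS+EVs and in LPS, and the lowest in Control. FPKM is a fragment count divided by the gene's length and by the library's total assigned to genes. The dendritic cell marker Itgax was at 29.8 to 52.0 FPKM and Zbtb46 at 1.41 to 3.36 FPKM, while Flt3 reached no more than 0.108 FPKM and Clec9a 0.437. The macrophage marker Cd68 was high as well, at 403 to 674 FPKM, and the labels name the cells only as bone marrow-derived dendritic and as immune cells. Some summed markers of other cells moved with LPS, while others, such as the stromal ones, overlapped between the groups. The 10 macrophage and monocyte markers summed to 1560 to 1960 FPKM in LPS+EVs, 1310 to 1760 in LPS and 1220 to 1340 in Control, while gene by gene 2 were called higher and 5 lower against Control both in LPS+EVs (median log2 difference -0.53) and in LPS (-0.63). Cd68 averaged 648 FPKM in LPS+EVs, 542 in LPS and 430 in Control. The 10 neutrophil and granulocyte precursor markers summed to 4.48 to 18.4 FPKM in LPS+EVs, 1.94 to 7.42 in LPS and 31.6 to 265 in Control. The 7 erythroid markers summed to 3.98 to 8.98, 4.99 to 9.70 and 55.4 to 448 FPKM, almost all of it Hba-a2 in Control, with Alas2 at no more than 0.014 FPKM. Stromal markers (8) summed to 157 to 856 FPKM in LPS+EVs, 117 to 745 in LPS and 160 to 473 in Control. Only 2 of 6 listed T and NK cell markers and 4 of 5 listed B cell markers had values. Each of these lists summed to at most 0.609 FPKM in any library. What part these differences have in the results was not tested.

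All 10 genes were transcribed in every culture. Fis1 was the most abundant, with means of 41 FPKM in LPS+EVs, 38.3 in LPS and 36.1 in Control, which placed it above 84.1%, 83.2% and 80.9% of tested genes. Fundc1 was the least abundant in each group and stood apart from its nearest neighbour in each. Mfn2 and Bnip3l came next in every group and overlapped each other, and Fis1 stood apart from its neighbour in LPS+EVs and in Control but not in LPS. Between these ends, Pink1, Rhot1, Opa1, Rhot2, Dnm1l and Mfn1 lay close together in LPS+EVs, each overlapping its neighbour, and the same 6 genes were close in LPS. In Control the order was more spread: Opa1 stood apart from Pink1 below it and ranked 4 of 10, against 6 in LPS+EVs and 7 in LPS. Mfn1 ranked 9 in LPS+EVs, 8 in LPS and 6 in Control, and Dnm1l 8, 4 and 7.

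**Figure D1:**
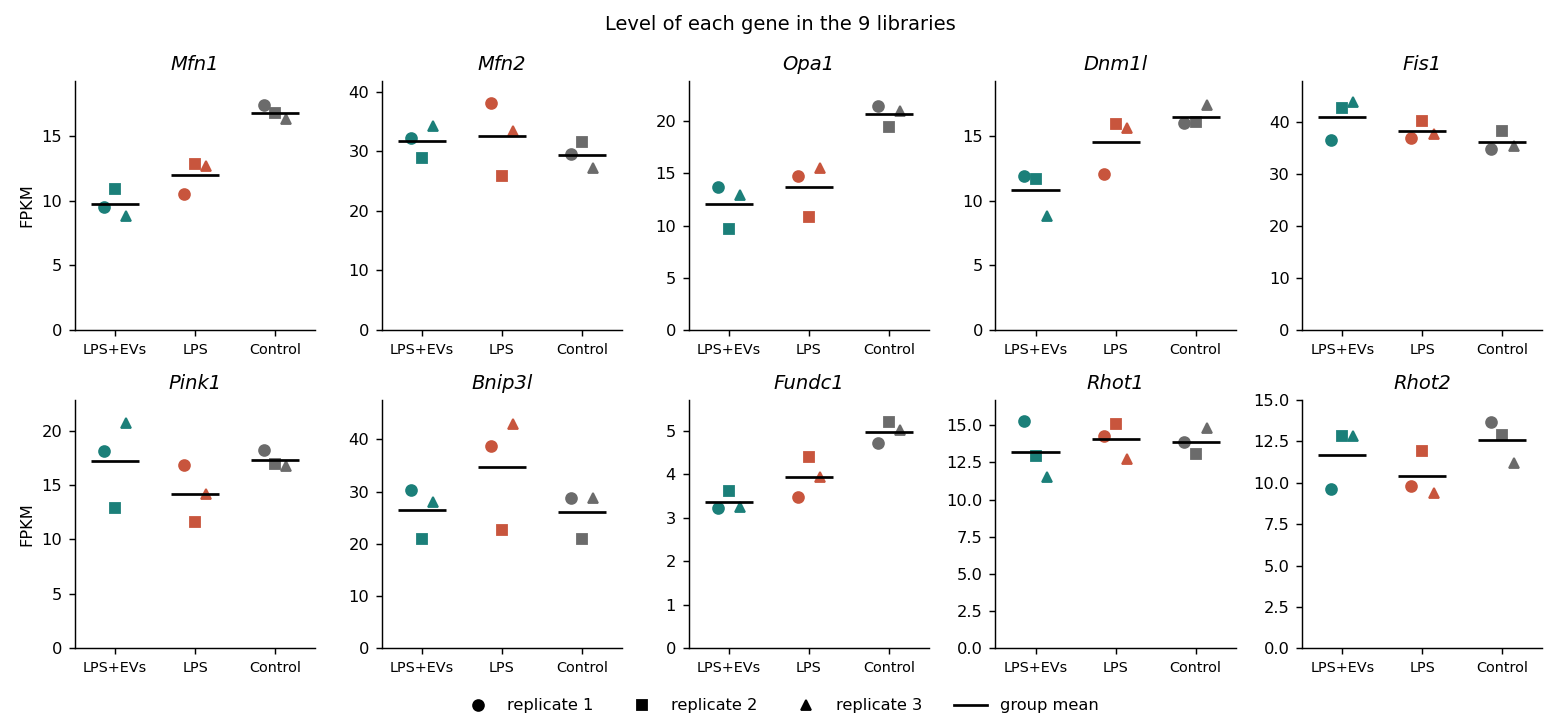
FPKM of each gene (vertical axis) in the 3 libraries of LPS+EVs, LPS and Control (horizontal axis), with symbols for the replicate number and a bar at the group mean. Mfn1 and Opa1 lie lower in all 6 LPS-treated libraries than in the 3 Control libraries, while Fis1, Pink1, Bnip3l and both Rhot genes overlap.

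Of the 10 genes, 0 passed as higher and 2 as lower in LPS against Control, at a Benjamini-Hochberg adjusted p under 0.05 by limma on log2(FPKM + 1), where 12.3% of all tested genes were called higher and 28.7% lower. As for LPS+EVs against Control, 0 were higher and 4 lower, where 13.5% and 30.8% of tested genes were. With the replicate number as a block, 3 members passed in LPS and 4 in LPS+EVs, where 52.6% and 55.2% of tested genes did in either direction. For LPS+EVs against LPS 0 members passed in either direction, with or without the block, where 0.0% of all tested genes did; 295 genes had an unadjusted limma p under 0.05 (2.65%), and limma-voom on recovered reads also called 0. The members' counts are close to the background and are no result about these genes as a group. The genes called were Mfn1 and Opa1 in both comparisons with Control, and Dnm1l and Fundc1 in LPS+EVs against Control. The difference between the counts was not itself tested, and the comparisons share the Control libraries. The median difference of the members was -0.22 in LPS against Control (all tested genes -0.19), -0.09 in LPS+EVs against Control (all tested genes -0.19) and -0.13 in LPS+EVs against LPS (all tested genes -0.01). FPKM are relative to a library's total. Median-of-ratios scaling moved the median of all genes to 0.00 in both comparisons with Control. For LPS against Control 1895 genes were then higher and 2307 lower, in place of 1368 and 3201 on the deposited scale. For LPS+EVs against Control 2081 were then higher and 2481 lower, in place of 1505 and 3436. In whole cultures, fewer cells of a type and less RNA per cell cannot be told apart.

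The promoters of Mfn1, Opa1 and Dnm1l are shown because these 3 genes were lower in LPS+EVs than in Control and have an entry among the promoters used here, and that of Bnip3 because this relative of Bnip3l rose in LPS. Each is a window of 300 bases that covers the gene's start, mostly upstream of it, written 5′ to 3′ on the gene's strand and taken from RefSeq on build GRCr8, which is a later build than the mRatBN7.2 used for the expression table. Capitals mark matches on either strand to any of 3 motifs. The first is ACGTG, the core read by hypoxia-inducible factors, which is CACGT on the other strand and lies inside the E-box CACGTG. Another is TGCGCA, a palindrome bound by the nuclear respiratory factor NRF1. The last is CCGGAAG, bound by ETS factors such as GABP, which is CTTCCGG on the other strand.
Mfn1, chr2:117241508-117241807, plus strand: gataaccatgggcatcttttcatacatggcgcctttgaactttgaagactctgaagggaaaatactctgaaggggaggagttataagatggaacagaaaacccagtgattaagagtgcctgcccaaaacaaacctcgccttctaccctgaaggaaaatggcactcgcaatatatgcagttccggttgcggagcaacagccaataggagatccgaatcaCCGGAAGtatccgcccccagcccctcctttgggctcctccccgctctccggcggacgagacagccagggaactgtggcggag
Opa1, chr11:84689851-84690150, minus strand: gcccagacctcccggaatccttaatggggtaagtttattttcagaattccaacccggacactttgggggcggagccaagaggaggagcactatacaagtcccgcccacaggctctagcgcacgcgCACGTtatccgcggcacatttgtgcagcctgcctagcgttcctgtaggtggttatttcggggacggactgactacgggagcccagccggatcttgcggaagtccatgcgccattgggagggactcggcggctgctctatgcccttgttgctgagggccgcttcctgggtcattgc
Dnm1l, chr11:98085147-98085446, plus strand: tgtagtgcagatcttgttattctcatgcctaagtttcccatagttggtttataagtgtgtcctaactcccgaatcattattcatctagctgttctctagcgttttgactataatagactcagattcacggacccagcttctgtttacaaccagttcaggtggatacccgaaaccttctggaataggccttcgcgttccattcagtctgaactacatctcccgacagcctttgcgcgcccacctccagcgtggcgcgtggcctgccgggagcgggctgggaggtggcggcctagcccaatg
Bnip3, chr1:203154913-203155212, minus strand: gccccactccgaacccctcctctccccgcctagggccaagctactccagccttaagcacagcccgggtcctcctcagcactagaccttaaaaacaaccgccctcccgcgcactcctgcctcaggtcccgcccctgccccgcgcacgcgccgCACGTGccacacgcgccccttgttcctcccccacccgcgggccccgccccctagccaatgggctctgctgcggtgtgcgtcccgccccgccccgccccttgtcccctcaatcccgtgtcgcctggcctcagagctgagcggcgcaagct
Mfn1 has 1 CCGGAAG, Opa1 has 1 ACGTG read on the other strand, Dnm1l has none of the motifs, and Bnip3 holds a CACGTG, which counts once on each strand. Promoters of 7 of the 10 members were matched, 8 in all because Fis1 has 2 starts; Mfn2, Bnip3l and Fundc1 had no entry. ACGTG stood in 2 of the 8 (Opa1 and Pink1), TGCGCA in 2 (Fis1 and Pink1) and CCGGAAG in 3 (Mfn1, Fis1 and Rhot1), against 19.3%, 7.24% and 8.75% of all 33469 promoters of this length. Pink1, which was called in no comparison and is not shown, has 4 ACGTG counts against 2 for Bnip3, both strands counted. A match describes letters in the window and shows no binding.

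Of the mitofusin genes, Mfn1 passed in both comparisons with Control and Mfn2 in neither. Mfn1, whose product tethers outer membranes to each other, had 9.52, 10.9 and 8.85 FPKM in LPS+EVs, 10.5, 12.8 and 12.7 FPKM in LPS, and 17.4, 16.8 and 16.3 FPKM in Control. Every LPS-treated library was below every Control library, and LPS+EVs overlapped LPS. Mfn1 fell in LPS (log2 difference -0.46 against Control, SE 0.12, limma adjusted p = 0.0185) and in LPS+EVs (-0.73, SE 0.12, adjusted p = 0.00216). The difference between LPS+EVs and LPS was -0.27, with a 95% interval of -0.55 to 0.01 (adjusted p = 0.999). The call in LPS rested on the scaling: with median-of-ratios scaling it was -0.26 with an adjusted p of 0.27, and over the alternatives the adjusted p ran between 0.0138 and 0.27. Leaving out Control replicate 1 (0.0687), Control replicate 2 (0.0521) or LPS replicate 1 (0.0659) also ended it, whereas in LPS+EVs against Control the highest adjusted p over the alternatives was 0.0403.

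Mfn2, the second mitofusin, which also links mitochondria to the endoplasmic reticulum, had 32.3, 28.9 and 34.3 FPKM in LPS+EVs, 38.1, 25.9 and 33.4 FPKM in LPS, and 29.6, 31.5 and 27.2 FPKM in Control. The groups overlapped throughout, and the log2 differences were 0.12 in LPS against Control (95% interval -0.22 to 0.47, adjusted p = 0.532), 0.11 in LPS+EVs against Control (-0.23 to 0.45, adjusted p = 0.578) and -0.01 in LPS+EVs against LPS (-0.35 to 0.33, adjusted p = 0.999). As a ratio within each library, log2 of (Mfn1 + 1) over (Mfn2 + 1), which does not depend on library scaling beyond the added 1, was -1.66, -1.33 and -1.84 in LPS+EVs, -1.77, -0.96 and -1.33 in LPS, and -0.74, -0.87 and -0.70 in Control. All 6 LPS-treated libraries were below all Control libraries. The mean ratio differed by -0.58 in LPS against Control and by -0.84 in LPS+EVs against Control, each with a two-sided exact permutation p of 0.1, the smallest that 3 against 3 allows (0.3 adjusted over the 12 ratio tests). Set against LPS, the ratio in LPS+EVs differed by -0.26 (exact permutation p = 0.5), with overlapping libraries.

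Opa1, the dynamin-like GTPase of the inner membrane, was the other fusion gene that fell. It had 13.7, 9.67 and 12.9 FPKM in LPS+EVs, 14.8, 10.8 and 15.5 FPKM in LPS, and 21.5, 19.5 and 21.0 FPKM in Control. No LPS-treated library reached the lowest Control library, and the library numbered 2 was the lowest of each group. The log2 difference was -0.57 in LPS against Control (SE 0.17, limma adjusted p = 0.0266) and -0.74 in LPS+EVs against Control (SE 0.17, adjusted p = 0.0084). The difference between LPS+EVs and LPS was -0.17, with a 95% interval of -0.56 to 0.22 (adjusted p = 0.999). With the libraries numbered 1 and 3 alone, it was -0.46 in LPS against Control (adjusted p = 0.0186), and with median-of-ratios scaling -0.37 (adjusted p = 0.0397). That call was lost when 1 of 4 libraries was left out: Control replicate 1 (adjusted p = 0.0866), Control replicate 2 (0.0542), Control replicate 3 (0.0776) or LPS replicate 2 (0.0604), the full range over alternatives being 0.00518 to 0.0866.

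**Figure D2:**
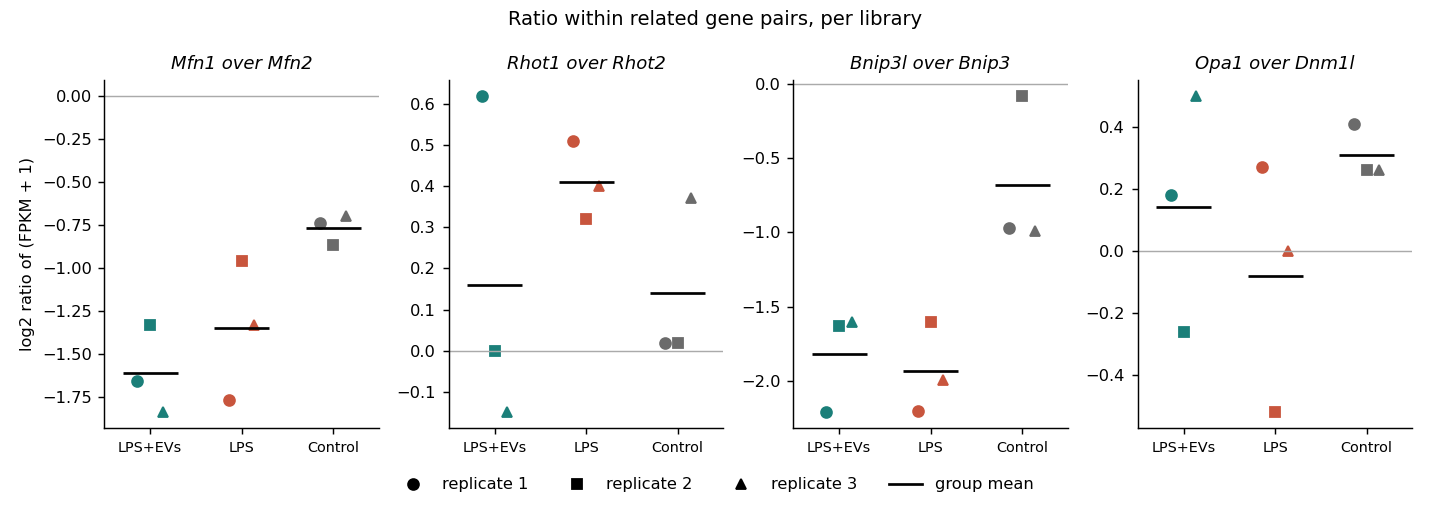
Log2 ratio of (FPKM + 1) within 4 pairs of related genes (vertical axis, scales differ between panels) in each library of LPS+EVs, LPS and Control (horizontal axis), with symbols for the replicate number and a bar at the group mean. Mfn1 over Mfn2 and Bnip3l over Bnip3 lie lower in all LPS-treated libraries than in all Control libraries, and the other pairs overlap.

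A list of fusion regulators held 11 tested genes, most of which process or stabilise OPA1 or assist fusion. It includes Chchd4, a gene of protein import. Of the 11, 0 were called higher and 6 lower in LPS against Control (12.3% and 28.7% of all tested genes). Their median log2 difference was -0.72 against -0.19 for all genes. The counts in LPS+EVs against Control were 0 higher and 7 lower, with a median of -0.96 against -0.19. The lower genes in both comparisons were Stoml2, Phb2, Msto1, Parl, Phb and Chchd4, joined in LPS+EVs by Slc25a46. Phb2, which with prohibitin forms an inner membrane scaffold for the proteases that cut OPA1, had 61.7 ± 11.7 FPKM in LPS+EVs, 57.0 ± 9.73 in LPS and 135 ± 14 in Control (SD, n = 3 each), a log2 difference of -1.24 in LPS against Control (adjusted p = 0.000953). Stoml2, a partner of that scaffold, had 27.8 ± 3.01, 25.9 ± 0.723 and 55.3 ± 6.44 FPKM in the same order, a difference of -1.06 (adjusted p = 0.000309). Msto1, a regulator of mitochondrial distribution and fusion, differed by -1.3 (adjusted p = 0.00595). Pld6, a lipase of the outer membrane, was too low to test, at no more than 0.15 FPKM. These 3 differences passed under every alternative run.

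Of 11 genes of the MICOS complex and its partners, which hold crista junctions together and work with OPA1, 6 were lower and 0 higher in both comparisons with Control (median log2 difference -0.75 in LPS+EVs and -0.69 in LPS, against -0.19 for all genes), where 30.8% of all tested genes were called lower in LPS+EVs and 28.7% in LPS. Without Control replicate 1 the count in LPS was 4, without Control replicate 3 that in LPS+EVs was 4, and with the replicate block both were 9. Immt, the central MICOS subunit, had 26.0 ± 4.77 FPKM in LPS+EVs, 29.5 ± 7.02 in LPS and 58.9 ± 2.01 in Control (log2 difference -1.0 in LPS against Control, adjusted p = 0.00442). Samm50, the outer membrane sorting protein, differed by -1.14 (adjusted p = 0.00201) and its partner Mtx2 by -0.69 (adjusted p = 0.00257). Of 11 genes often read as a measure of mitochondrial content, 6 were lower and 0 higher in LPS+EVs against Control (median -0.64), and 5 and 0 in LPS against Control (median -0.51), read against the same shares. Among them Hspd1, the matrix chaperonin, had 26.9 ± 7.02 FPKM in LPS+EVs, 36.2 ± 13.8 in LPS and 109 ± 9.42 in Control (-1.64 in LPS against Control, adjusted p = 0.00321). The electron carrier Cycs differed by -0.73 and the outer membrane channel Vdac2 by -0.76 (adjusted p = 0.000797 each). Over all 1172 tested genes that the deposited table annotates to the mitochondrion, a set chosen after values were seen, 7.59% were higher and 38.6% lower in LPS against Control, and 9.04% and 39.4% in LPS+EVs against Control. Their median difference was -0.39 in LPS against Control. The deposited annotation places 9 of the 10 members there, all but Fundc1.

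**Figure D3:**
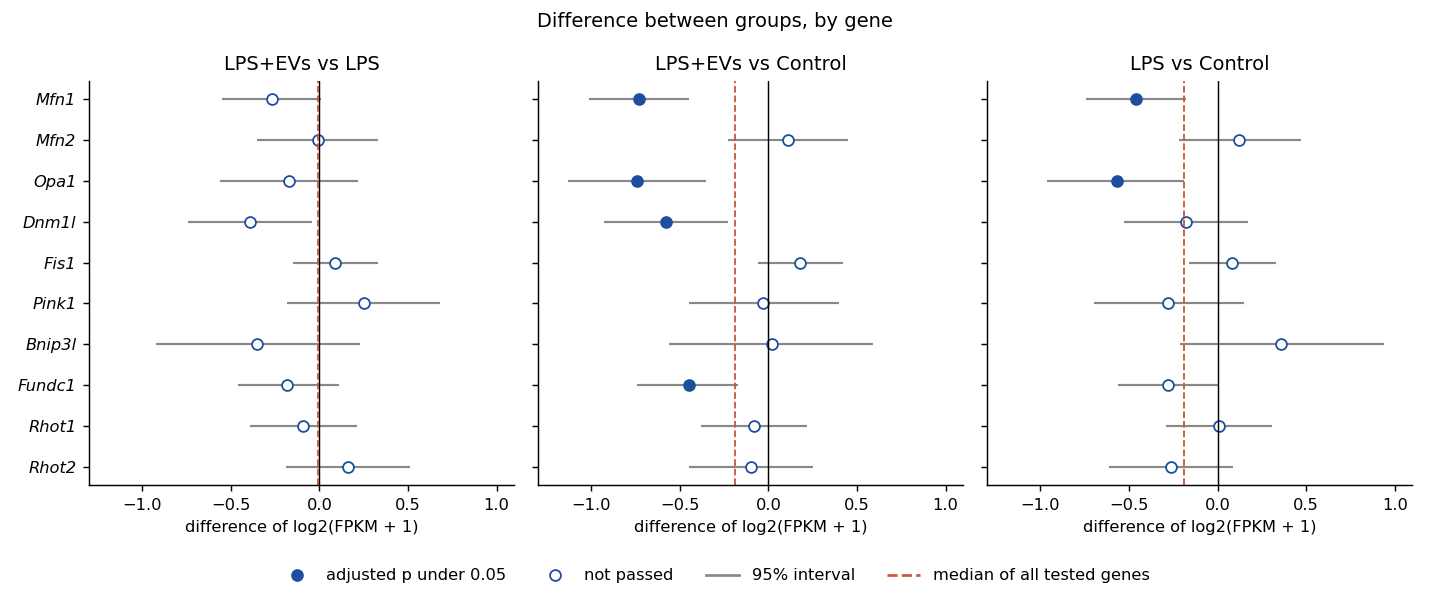
Difference of log2(FPKM + 1) (horizontal axis) for each of the 10 genes (rows) in LPS+EVs against LPS, LPS+EVs against Control and LPS against Control, with 95% limma intervals; filled points have an adjusted p under 0.05 and the dashed line is the median of all tested genes. No point is filled in LPS+EVs against LPS, where all 10 intervals lie between -0.92 and 0.68.

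Of the fission genes, Dnm1l passed in 1 comparison and Fis1 in none. Dnm1l, which encodes the GTPase that constricts mitochondria, had 11.9, 11.7 and 8.82 FPKM in LPS+EVs, 12.1, 15.9 and 15.6 FPKM in LPS, and 16.0, 16.1 and 17.4 FPKM in Control. The 3 groups did not overlap, LPS+EVs lying lowest and Control highest, but the steps between them were narrow. Against Control, Dnm1l fell in LPS+EVs by 0.58 on the log2 scale (SE 0.15, limma adjusted p = 0.0156), and in LPS against Control the difference was -0.18 (95% interval -0.53 to 0.17, adjusted p = 0.365). Between LPS+EVs and LPS it was -0.39 (95% interval -0.74 to -0.04, unadjusted p = 0.0312, adjusted p = 0.999). Dnm1l was the only member with an unadjusted p under 0.05 in that comparison, where 2.65% of all tested genes had one, and the only member whose groups did not overlap there, where 6.62% of tested genes did not (3.48% with LPS+EVs below). The call against Control was lost with median-of-ratios scaling (-0.36, adjusted p = 0.175) and without Control replicate 3 (0.0582), within a range of 0.0139 to 0.175 over the alternatives.

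Fis1, an outer membrane protein that can bind the fission GTPase, had 36.5, 42.8 and 43.9 FPKM in LPS+EVs, 37.0, 40.3 and 37.7 FPKM in LPS, and 34.9, 38.2 and 35.3 FPKM in Control. All groups overlapped. The log2 differences were 0.08 in LPS against Control (95% interval -0.16 to 0.33, adjusted p = 0.55), 0.18 in LPS+EVs against Control (-0.06 to 0.42, adjusted p = 0.206) and 0.09 in LPS+EVs against LPS (-0.15 to 0.33, adjusted p = 0.999). The transcript ratio of Opa1 over Dnm1l was 0.14 ± 0.38 in LPS+EVs, -0.08 ± 0.41 in LPS and 0.31 ± 0.09 in Control (log2, SD, n = 3 each). Fusion and fission themselves were not measured. The ratio was lower in LPS than in Control in 3 of 3 same-numbered pairs (exact sign-flip p = 0.25, the smallest that 3 pairs allow). It was wide in both LPS-treated groups, with exact permutation p-values of 0.3 for LPS against Control, 0.7 for LPS+EVs against Control and 0.6 for LPS+EVs against LPS.

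Of 15 tested fission receptors and regulators, 1 was higher and 5 lower in LPS against Control (median log2 difference -0.29). In LPS+EVs against Control 2 were higher and 5 lower (-0.34). These counts were near those of all tested genes, of which 12.3% were higher and 28.7% lower in LPS, and 13.5% and 30.8% in LPS+EVs. Median-of-ratios scaling, with or without the block, gave 3 higher and 4 lower in LPS, and 4 and 4 in LPS+EVs. Mtfr2, a fission regulator of dividing cells, fell furthest of the 3 named here: it had 0.921 ± 0.366 FPKM in LPS+EVs, 1.1 ± 0.668 in LPS and 10.1 ± 1.53 in Control, a log2 difference of -2.43 in LPS against Control (adjusted p = 0.000137) and -2.53 in LPS+EVs against Control (adjusted p = 0.000111). Mtfp1, an inner membrane fission protein, differed by -1.22 in LPS against Control (adjusted p = 0.00397). Ppp3cb, a catalytic subunit of calcineurin, which removes an inhibitory phosphate from the fission GTPase, differed by -0.70 in LPS (adjusted p = 0.00145) and by -0.92 in LPS+EVs (adjusted p = 0.000372). Mff, an outer membrane receptor for the fission GTPase, was among the genes lower in LPS, and Spire1, an actin nucleator at mitochondria, was higher in both. All LPS-treated libraries lay below all Control libraries for Mtfr2, Mtfp1 and Ppp3cb.

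Of the mitophagy genes, Fundc1 passed in 1 comparison, and Pink1 and Bnip3l in none. Pink1, the kinase that builds up on depolarised mitochondria, had 18.1, 12.9 and 20.7 FPKM in LPS+EVs, 16.8, 11.6 and 14.2 FPKM in LPS, and 18.2, 16.9 and 16.7 FPKM in Control. The LPS-treated groups were wider than Control and overlapped it. The log2 differences were -0.28 in LPS against Control (95% interval -0.70 to 0.15, adjusted p = 0.268), -0.03 in LPS+EVs against Control (-0.45 to 0.40, adjusted p = 0.921) and 0.25 in LPS+EVs against LPS (-0.18 to 0.68, adjusted p = 0.999).

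Around this kinase, 2 of 11 tested genes of ubiquitin-dependent mitophagy were higher and 3 lower in LPS against Control, and 2 and 4 in LPS+EVs against Control. The median log2 differences were 0.12 and 0.06, against -0.19 for all genes, of which 12.3% were higher and 28.7% lower in LPS, and 13.5% and 30.8% in LPS+EVs. Median-of-ratios scaling turned the split, to 5 higher and 2 lower in LPS+EVs and to 5 and 1 in LPS, and with the block as well it was 6 and 3 in LPS. The 5 called in LPS became 3 on leaving out LPS replicate 1 or either Control replicate 1 or 3, and the 6 called in LPS+EVs became 3 without Control replicate 3. Nbr1, an autophagy receptor that binds ubiquitin, rose: it had 73.2 ± 11.7 FPKM in LPS+EVs, 69.3 ± 7.98 in LPS and 40.2 ± 1.68 in Control (log2 difference 0.76 in LPS against Control, adjusted p = 0.00345). Tomm7, an import receptor subunit needed to keep PINK1 on the outer membrane, fell by 0.68 on the log2 scale (adjusted p = 0.00515). Vcp, the segregase that pulls ubiquitinated proteins from membranes, had 159 ± 21.1 FPKM in LPS+EVs, 167 ± 7.01 in LPS and 239 ± 12.3 in Control. It differed by -0.51 in LPS against Control (adjusted p = 0.00854), a call lost with median-of-ratios scaling (-0.30, adjusted p = 0.193, range 0.00442 to 0.193). Calcoco2, another receptor for ubiquitin-marked cargo, was too low to test, at no more than 0.177 FPKM.

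Bnip3l (also called NIX), an outer membrane receptor that calls autophagosomes directly, had 30.3, 21.0 and 28.1 FPKM in LPS+EVs, 38.8, 22.6 and 43.0 FPKM in LPS, and 28.8, 21.0 and 28.7 FPKM in Control. Libraries 1 and 3 of LPS were above every other library, and library 2 was the lowest of each group. The log2 difference in LPS against Control was 0.36 (95% interval -0.21 to 0.94, adjusted p = 0.278), and with the replicate number as a block the adjusted p was 0.0402. It also passed with median-of-ratios scaling (0.57, adjusted p = 0.0425), with libraries numbered 1 and 3 alone (0.49, adjusted p = 0.0152) and without LPS replicate 2 (0.64, adjusted p = 0.0325), and the range over alternatives was 0.00445 to 0.599. In LPS+EVs against LPS it was -0.35 (95% interval -0.92 to 0.23, adjusted p = 0.999, 0.776 with the block), and in LPS+EVs against Control 0.02 (-0.56 to 0.59, adjusted p = 0.965).

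Bnip3, its close relative and a known target of hypoxia-inducible factors, gave larger differences. Bnip3 had 144, 67.4 and 87.4 FPKM in LPS+EVs, 182, 70.7 and 174 FPKM in LPS, and 57.6, 22.3 and 57.8 FPKM in Control. Every LPS-treated library was above every Control library, and library 2 was again the lowest of each group. It rose in LPS (log2 difference 1.61 against Control, SE 0.48, adjusted p = 0.0274, 0.000325 with the block), a call that ended when Control replicate 2 (0.0871), LPS replicate 1 (0.0865) or LPS replicate 3 (0.0755) was left out and with no filter (0.0651), over a range of 0.000264 to 0.0871. In LPS+EVs against Control the difference was 1.15 (SE 0.48), with an adjusted p of 0.0832 that became 0.00151 with the block. Set against LPS, LPS+EVs differed by -0.46 (95% interval -1.56 to 0.64, adjusted p = 0.999). The ratio of Bnip3l to Bnip3 was -2.21, -1.63 and -1.60 in LPS+EVs, -2.20, -1.60 and -1.99 in LPS, and -0.97, -0.08 and -0.99 in Control (log2). Every LPS-treated library was below every Control library. The mean ratio differed by -1.25 in LPS and -1.13 in LPS+EVs (exact permutation p = 0.1 each, the smallest possible), and by 0.11 in LPS+EVs against LPS (exact permutation p = 1.0).

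Fundc1, a receptor of the outer membrane that acts in low oxygen, was the remaining gene lower in LPS+EVs. It had 3.22, 3.62 and 3.25 FPKM in LPS+EVs, 3.48, 4.40 and 3.93 FPKM in LPS, and 4.71, 5.19 and 5.01 FPKM in Control. Both LPS-treated groups lay below Control without overlap and overlapped each other, and library 2 was the highest of each group. The log2 difference was -0.45 in LPS+EVs against Control (SE 0.12, adjusted p = 0.0179), -0.28 in LPS against Control (95% interval -0.56 to 0.01, adjusted p = 0.107) and -0.18 in LPS+EVs against LPS (-0.46 to 0.11, adjusted p = 0.999). The call was lost with median-of-ratios scaling (-0.27, adjusted p = 0.219) and on leaving out Control replicate 2 (0.0614), Control replicate 3 (0.0619) or LPS+EVs replicate 1 (0.0561), within a range of 0.0129 to 0.219. With the filter of 5 FPKM, Fundc1 was not tested. At 205 to 386 reads per library its counts were the smallest of the 10 genes.

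Among 10 further tested receptors and regulators of mitophagy, Bnip3 included, 4 were higher and 1 lower in LPS against Control, and 3 and 1 in LPS+EVs against Control, with median log2 differences of 0.36 and 0.40 against -0.19 for all genes, of which 12.3% and 13.5% were higher. The counts rested on single libraries. In LPS 2 were higher and 1 lower without Control replicate 2 or Control replicate 3, and 1 and 1 without LPS replicate 1, while in LPS+EVs 2 and 0 were called without Control replicate 1. Scaling by median-of-ratios together with the replicate block gave 8 higher and 1 lower in LPS+EVs, and 7 and 1 in LPS. Ulk1, the kinase that starts autophagy and phosphorylates FUNDC1, had 14.9 ± 1.36 FPKM in LPS+EVs, 10.8 ± 4.16 in LPS and 4.27 ± 0.192 in Control. It rose in LPS (1.11, adjusted p = 0.0051) and in LPS+EVs (1.59, adjusted p = 0.000894). Bcl2l13, a receptor with a role like that of yeast Atg32, had 17.3 ± 0.934 FPKM in LPS+EVs, 16.1 ± 1.68 in LPS and 11.4 ± 1.11 in Control. It rose by 0.46 in LPS (adjusted p = 0.0179), a call lost without Control replicate 3 (0.0722) or LPS replicate 1 (0.0508) and with libraries numbered 1 and 3 alone (0.0635), and by 0.56 in LPS+EVs (adjusted p = 0.00672). Nipsnap2, a matrix protein shown on the surface of damaged mitochondria, fell by 0.58 in LPS (adjusted p = 0.0077), and with median-of-ratios scaling the adjusted p was 0.076. Fbxl4, which limits the BNIP3 receptors, was too low to test, at 0.166 to 0.763 FPKM.

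Neither transport gene passed the test. Rhot1, which encodes the adaptor Miro1, had 15.3, 12.9 and 11.5 FPKM in LPS+EVs, 14.3, 15.1 and 12.7 FPKM in LPS, and 13.9, 13.1 and 14.8 FPKM in Control. Rhot2, which encodes Miro2, had 9.60, 12.8 and 12.8 FPKM in LPS+EVs, 9.79, 11.9 and 9.41 FPKM in LPS, and 13.7, 12.9 and 11.2 FPKM in Control. All groups overlapped for both genes. For Rhot1 the log2 difference was 0.01 in LPS against Control (95% interval -0.29 to 0.31, adjusted p = 0.959), -0.08 in LPS+EVs against Control (-0.38 to 0.22, adjusted p = 0.659) and -0.09 in LPS+EVs against LPS (-0.39 to 0.21, adjusted p = 0.999). For Rhot2 it was -0.26 (-0.61 to 0.09, adjusted p = 0.202), -0.10 (-0.45 to 0.25, adjusted p = 0.619) and 0.16 (-0.19 to 0.51, adjusted p = 0.999) in the same order. Their ratio, Rhot1 over Rhot2, was 0.16 ± 0.41 in LPS+EVs, 0.41 ± 0.09 in LPS and 0.14 ± 0.20 in Control (log2, SD, n = 3 each), with exact permutation p-values of 0.2 for LPS against Control, 0.4 for LPS+EVs against LPS and 1.0 for LPS+EVs against Control.

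Of 8 tested adaptors and motors, 0 were higher and 1 lower in LPS against Control, and 0 and 3 in LPS+EVs against Control, or 12.5% and 37.5% lower, where 28.7% and 30.8% of all tested genes were. In LPS the count lower was 0 when any 1 library but LPS replicate 3 was left out, 2 without LPS replicate 3 and 3 with the block; scaled by median-of-ratios, 1 was higher and 0 lower. In LPS+EVs it was 1 without Control replicate 1, Control replicate 2, Control replicate 3 or LPS+EVs replicate 2. Kif1b, a kinesin that carries mitochondria, was the 1 called in LPS (-0.36, adjusted p = 0.0407), a call lost with median-of-ratios scaling (-0.16, adjusted p = 0.344) and without any 1 of the 6 compared libraries (0.0593 to 0.134). Trak2, the adaptor that joins Miro to kinesin and dynein, had 10.3 ± 1.81 FPKM in LPS+EVs, 11.3 ± 3.65 in LPS and 17.5 ± 0.641 in Control. It differed by -0.63 in LPS against Control (adjusted p = 0.0505, 0.0236 with the block) and fell by 0.72 in LPS+EVs (adjusted p = 0.0285), a call lost without any 1 of 5 libraries (0.07 to 0.0885) and with no filter (0.0565). Armcx1, a protein that promotes mitochondrial movement in neurons, had 6.42 ± 0.772 FPKM in LPS+EVs, 7.03 ± 0.699 in LPS and 4.73 ± 1.26 in Control (0.51 in LPS against Control, adjusted p = 0.056). Armcx1 passed in LPS with median-of-ratios scaling (0.69, adjusted p = 0.0303), and with libraries numbered 1 and 3 alone it was 0.27 (adjusted p = 0.186). The neuronal genes Kif5c, Snph and Fez1 were too low to test, at no more than 0.613 FPKM.

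**Figure D4:**
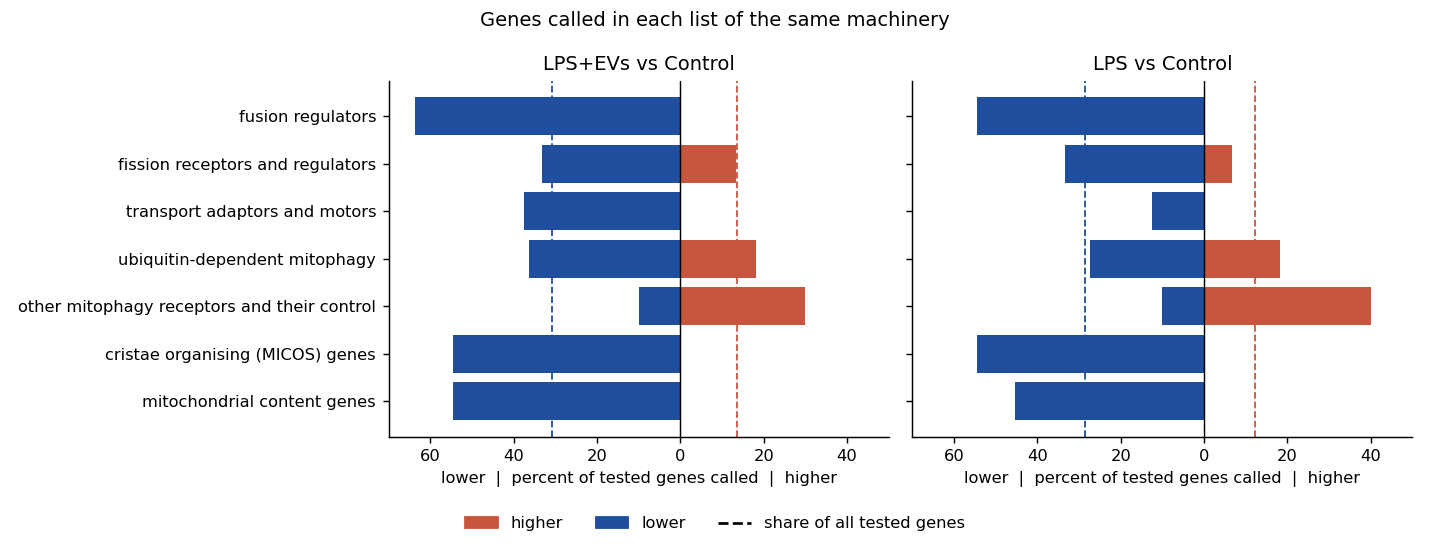
Percent of tested genes called lower (left of 0) and higher (right of 0) in each list of related genes (rows), in LPS+EVs against Control and LPS against Control; dashed lines give the shares of all tested genes. Lists hold 8 to 15 tested genes, so 1 gene moves a bar visibly; the fusion, transport, MICOS and content lists have bars on the lower side only.

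The vesicles left no difference past the threshold in any of these lists: of the 77 tested list genes 0 were called in LPS+EVs against LPS, and 1 had an unadjusted p under 0.05. For the 10 members the 95% intervals of that comparison all lay within 1 log2 unit of 0, between -0.92 and 0.68. Each interval was for 1 gene and used a spread pooled over all 9 libraries, Control included. A 2-fold difference was outside each interval on that fit only. For Bnip3l, which had the lowest bound, the coefficient of variation was 18.3% in LPS+EVs, 30.9% in LPS and 17.2% in Control. In that comparison 3 members were positive and 7 negative. Taking libraries of the same number as pairs, Mfn1, Opa1, Dnm1l, Bnip3l and Fundc1 were lower in LPS+EVs than in LPS in 3 of 3 pairs and Pink1 was higher in 3 of 3, where 16.8% and 16.7% of all tested genes were. With 3 pairs the smallest two-sided exact p is 0.25, and 0 members passed with the block. Against Control, 4 members lay below it without overlap in LPS (Mfn1, Opa1, Dnm1l and Fundc1) and the same 4 in LPS+EVs, where 37.6% and 40.6% of all tested genes did.

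The gene whose log2(FPKM + 1) followed each member most closely over the 9 libraries was Rbm12 for Mfn1 (Pearson r 0.992), Chpf for Mfn2 (0.964), Rsl1d1 for Opa1 (0.995), Smarca5 for Dnm1l (0.98) and Ubox5 for Fis1 (0.979). It was LOC100294508 for Pink1 (0.96), Rab18 for Bnip3l (0.982), Fam76b for Fundc1 (0.98), Cnot6l for Rhot1 (0.938) and Khsrp for Rhot2 (0.971). These values are the highest among 11141 genes, and the 9 points share their group and their replicate number, so they describe the libraries only.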

How the data were processed

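Per the submitters' processing notes, the tools were HISAT2, HTSeq, fastp and R 3.2.0, with build mRatBN7.2. Their settings, and whether strand was used in counting, are not given in the sources used here. The authors deposited 1 table of values, taken here as FPKM, for 20442 genes in 9 libraries, with gene symbols, which were used as given. The steps gave back whole reads for 18833 of 18833 genes seen in at least 2 libraries (largest distance 0.00025, tolerance 0.002). Whole reads alone do not fix the unit. The depth read from the steps followed the library totals, as division by the total in FPKM would give. It was 0.83635 in Control 2 relative to Control 1, with 32957420 reads against 39407116. Division by gene length was not checked. Reads per library were 32148519 to 39407116.

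Genes with at least 1 FPKM in 3 or more libraries were kept, 1 was added before log2, and limma 3.58.1 (R 4.3.3) fitted 1 mean per group to all 9 libraries with trended variances. P-values are two-sided and Benjamini-Hochberg adjusted over the 11141 tested genes within a comparison, with a threshold of 0.05. Differences are on the log2(FPKM + 1) scale, which understates changes of low genes. Ratios within pairs were compared by exact permutation. Related-gene lists are described by counts and medians, with no list test. A gene of these lists is not reported here.

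The members and lists were chosen with earlier results of these data known. Named genes are the 10 members, Bnip3, up to 3 genes per list with the smallest adjusted p in LPS against Control, list genes passing in LPS+EVs against LPS (0 did), and the closest gene of each member. Exceptions, named after their values were seen, are genes too low to test and some genes named only for their direction. Same-numbered libraries deviated together across groups (r from 0.28 to 0.86 in all 9 pairs, against -0.74 to 0.43 for different numbers), so the numbers were taken to pair cultures, and a fit with the replicate block is given where it changes a call.

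The scripts were tested on simulated data. There, 100 genes were changed 2-fold and 100 others 4-fold between LPS+EVs and LPS, picked among genes of higher level. The fit found 69.0% of the 2-fold and 94.0% of the 4-fold changes, and 5.23% of its calls were false. A 2-fold change could thus be missed. The simulated noise was independent between libraries, without the shared deviation of same-numbered libraries, so these rates may not carry over to the real comparison. Genes as low as Fundc1 were not among those changed. Alternatives were leaving out each library, a filter of 5 FPKM or no filter, median-of-ratios scaling, the replicate block, 0.1 added in place of 1, and fits to the libraries of a comparison only. Limma-voom on recovered reads, libraries numbered 1 and 3 alone, scaling together with the block, and paired ratios were added after seeing the data. Python 3.11.15 with numpy 2.4.6 and pandas 2.3.3 made the tables, and matplotlib 3.10.9 the figures.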

Additional observations from a re-analysis of the deposited data

How the results depend on the processing

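Against 2 members called in LPS against Control, median-of-ratios scaling with the replicate block gave 4 (3 higher, 1 lower) and leaving out 1 library gave 0 to 2. In LPS+EVs against Control the 4 became 2 with median-of-ratios scaling and 2 to 4 leaving out 1 library. With the filter of 5 FPKM they became 3, since Fundc1 was then not tested. In LPS+EVs against LPS every alternative gave 0. The replicate block alone gave 3 and 4. Besides the Bnip3l, Bnip3 and Trak2 values given above, it brought Slc25a46 past the threshold in LPS against Control (adjusted p 0.0947 without and 0.0416 with it) and Mff in LPS+EVs against Control (0.0531 and 0.0489), and it changed no other call of a member or list gene named here. Over same-numbered pairs the exact sign-flip p of the 12 ratio tests ran from 0.25, the smallest possible, to 1.0. Mfn2 and Fis1 passed as higher only with scaling and block together (adjusted p 0.0443 and 0.0435 in LPS, 0.0434 and 0.0127 in LPS+EVs, against Control). Direction turned for values near 0. Median-of-ratios scaling, with or without the block, gave 0.02 for Dnm1l in LPS against Control and 0.19 for Pink1, 0.13 for Rhot1 and 0.11 for Rhot2 in LPS+EVs against Control. Libraries 1 and 3 alone gave -0.08 for Rhot1 in LPS and 0.14 for Pink1 in LPS+EVs, against Control. Leaving out 1 library, values ran from -0.04 to 0.08 (Rhot1) in LPS against Control; from -0.16 to 0.11 (Mfn2) and -0.19 to 0.00 (Rhot1) in LPS+EVs against LPS; and from -0.16 to 0.16 (Pink1), -0.13 to 0.17 (Bnip3l), -0.18 to 0.01 (Rhot1) and -0.18 to 0.03 (Rhot2) in LPS+EVs against Control. Over all genes, 4569 calls in LPS against Control became 2775 without Control replicate 1 and 3006 without Control replicate 3, 4941 in LPS+EVs against Control became 3239 without Control replicate 1, and 0 in LPS+EVs against LPS became 1 without LPS replicate 2. The cause was not tested.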
